A study of Mus musculus with 24 samples.

Results

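The transcriptome of mouse embryonic stem cells (ESCs) without TET enzymes was set against that of wild-type ESCs over all genes of the deposited count tables. Members were chosen by their labelled genotype: 3 TET triple knockout (TET TKO) libraries and 3 ESC libraries, 6 of the 24 samples of the series. The series asked which transcription factors bind methylated DNA and lower its methylation, by placing motif-bearing fragments at a single genomic site and reading their methylation in ESCs, in neuronal progenitors (NPs) derived from them, and in TET TKO cells. RNA sequencing described the cells themselves. The tables list 51912 genes, and 13939 of them reached 1 RPKM (reads scaled by the exon length of a gene in kilobases and by the size of the library) in at least 1 of these libraries and were tested.

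The ESC group is wild type, of strain C57BL/6 X 129S5. The TET TKO group is a TET1/2/3 triple knockout of strain C57BL/6 X 129/sv. Per the study's methods the wild-type cells grew on gelatin with LIF, and a cassette for fragment exchange was inserted at the β-globin locus of the TET TKO line, where hygromycin-resistant colonies were picked. The wild-type line used for fragment exchange carried such a cassette at the same locus. The knockout is 1 separately derived line, so the loss of TET enzymes, the strain and the history of the line cannot be told apart. The methods of the study call its RNA sequencing replicates biological, while the labels only number them. Whether they came from separate cultures is not stated, so p-values measure the spread between these libraries. In bulk RNA, fewer cells of a type and less RNA per cell cannot be told apart. The depth was 20570050, 21602345 and 23976914 counted reads in ESC replicates 1, 2 and 3. TET TKO replicates 1, 2 and 3 held 84377108, 80704741 and 93210102, on average 3.90 times as many. Genotype and depth therefore coincide, and a count of genes with any read would favour the knockout.

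TET enzymes oxidise the methyl group of 5-methylcytosine, most of which lies in CpG dinucleotides, and start its removal from DNA. Without them, cytosines that are methylated stay methylated unless the mark is diluted by replication. ESCs are descended from the inner cell mass and are normally separated from the trophoblast, the outer lineage that forms the placenta, while a small and changing share of cells in ESC culture switches on genes of the 2-cell embryo.

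The knocked-out genes were examined first. Tet1 read 64.2, 58.0 and 66.7 RPKM in ESC replicates 1, 2 and 3 and 12.7, 15.4 and 10.9 RPKM in the TET TKO replicates. Tet2 read 19.9, 19.4 and 15.7 RPKM in ESCs and 2.33, 2.58 and 2.23 RPKM in the knockout. Both were low in every TET TKO library and the groups did not overlap: the log2 fold change was -2.28 ± 0.14 (SE, n = 3 per group) for Tet1, with an adjusted p of 9.72e-05, and -2.94 ± 0.13 for Tet2, with an adjusted p of 1.95e-05. Tet3 was low in all 6 libraries, at 0.726, 0.602 and 0.749 RPKM in ESCs and 0.540, 0.591 and 0.456 RPKM in TET TKO cells, and was below the limit for testing. Counts are summed over all exons of a gene, so reads from exons outside a deletion remain, and the Tet3 counts by themselves check nothing about the Tet3 allele.

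**Figure D1:**
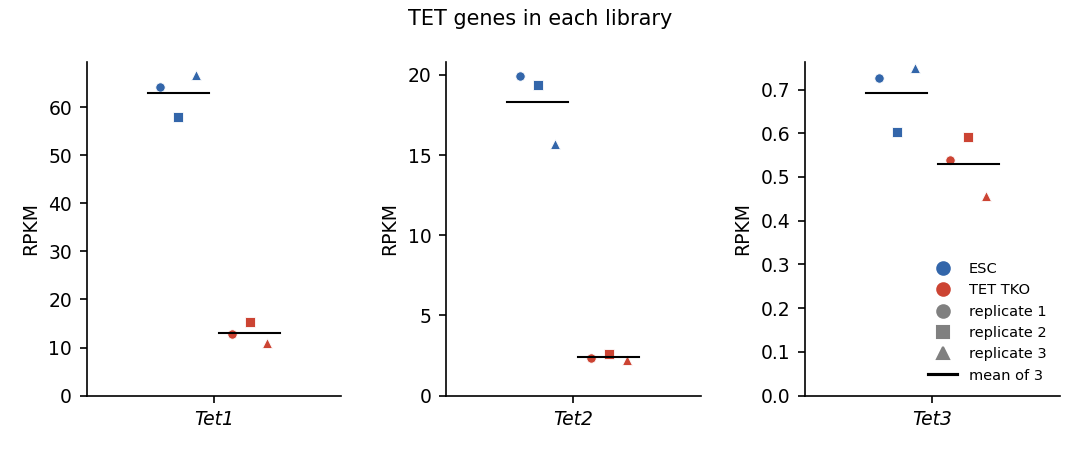
RPKM of Tet1, Tet2 and Tet3 in each ESC and TET TKO library, a panel per gene with its own axis from 0; shapes mark replicates and lines the mean of 3. Tet1 lies between 58.0 and 66.7 RPKM in ESCs and between 10.9 and 15.4 RPKM in TET TKO cells, while Tet3 stays below 1 RPKM in all 6 libraries.

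Genome-wide, 143 genes rose and 163 fell in TET TKO cells at an adjusted p under 0.001 and at least 3-fold, which is 1.03% and 1.17% of the genes tested and 2.2% together. At an adjusted p under 0.05 without a limit on the fold, 35.3% of the genes differed. At an adjusted p under 0.05 and at least 2-fold, the rule used for gene groups from here on, 1236 genes (8.87%) were higher and 938 (6.73%) lower. The share of higher genes among the 3-fold calls was 46.7%, against 33.0% (89 higher, 181 lower) when libraries were scaled by their total alone. Under that scaling the median log2 fold change of all genes fell by 0.17 from its 0.12, and under the test of DESeq2 it fell by 0.11, so gene groups are set beside that median. Thinning the knockout counts to the ESC depth left 135 higher and 165 lower, close to the full-depth counts. Of the 306 genes called at full depth, 264 were still called. The counts moved with the libraries that entered. They came to 13 higher and 34 lower without ESC replicate 1, 17 and 40 without ESC replicate 2, and 23 and 46 without ESC replicate 3. Without TET TKO replicate 1 they were 48 and 50, and without TET TKO replicate 2 82 and 86. Without TET TKO replicate 3 they did not drop, at 150 and 163. All 3-fold calls that were tested in these smaller fits had the same sign as with 6 libraries, which bears on direction and not on the number of calls. All 306 called genes had groups that did not overlap, as did 7209 of all genes tested.

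Among genes that rose, Nod1, an innate sensor of bacterial cell wall fragments, went from 0.234, 0.215 and 0.242 RPKM in ESC replicates 1, 2 and 3 to 13.9, 13.7 and 11.1 RPKM in the knockout, a log2 fold change of 5.80 ± 0.17 (adjusted p = 4.64e-06). Serpina3m, a secreted protease inhibitor, went from 0.239, 0.686 and 0.207 to 16.4, 17.4 and 16.1 RPKM (log2 fold change 5.46 ± 0.40). These genes were nearly silent in every ESC library and expressed at similar levels in the 3 knockout libraries. Ido2, a tryptophan-degrading dioxygenase, rose by 4.38 on the log2 scale and Ipp, first described as a placental transcript started by an IAP retroelement, by 4.43. Ipp was the more abundant, at 69.3, 54.9 and 78.7 RPKM in TET TKO replicates 1, 2 and 3 against 3.72, 2.75 and 2.92 RPKM in ESCs. Slc40a1, the iron exporter ferroportin, and Cldn7, a tight junction claudin, had log2 fold changes of 3.75 and 3.58. Among the most abundant genes that rose was Dynll2, a light chain of the dynein motor, at 50.6, 53.8 and 50.7 RPKM in ESCs and 176, 188 and 198 RPKM in TET TKO cells.

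Among genes that fell, Kbtbd11, a BTB and kelch domain protein, dropped from 7.65, 7.84 and 6.37 RPKM in ESCs to 0.0525, 0.0301 and 0.0423 RPKM in TET TKO cells (log2 fold change -7.43 ± 0.24, adjusted p = 5.73e-06). Crocc2, related to the ciliary rootlet protein rootletin, read 3.24, 3.21 and 2.23 RPKM in ESCs and 0.0333, 0.0282 and 0.0439 RPKM in the knockout. Both were below 0.1 RPKM in every TET TKO library. Samd12, Kctd8, Myot, a muscle Z-disc protein, and Wdr64 had log2 fold changes between -7.34 and -6.07 from ESC levels of at most 1.57 RPKM. Icam1, a cell adhesion receptor for leukocytes, Nid1, a basement membrane linker, and Notch4, a Notch receptor, fell by 3-fold or more, with log2 fold changes of -1.78, -1.66 and -1.77. Gm18363 had 602, 670 and 532 reads in ESC replicates 1, 2 and 3 and none in the knockout. Set against a floor of 3 reads over the TET TKO group, its level was at least 2114-fold lower.

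The clearest group of genes that rose was that of the trophoblast. Of 26 listed genes, 22 were tested, and 18 of these were higher and 0 lower at 2-fold by edgeR (lower at an unadjusted p under 0.05 were 0, and by DESeq2 0), where 8.87% of all tested genes were higher. Their median log2 fold change was 2.56, beside 0.12 for all genes tested. By edgeR 1 of them, Hand1, passed the stricter rule, while DESeq2 called 14 higher by that rule. Hand1, a bHLH factor of trophoblast giant cells and of early mesoderm, read 0.275, 0.766 and 0.416 RPKM in ESC replicates 1, 2 and 3 and 5.85, 10.03 and 12.6 RPKM in the TET TKO replicates (log2 fold change 4.29 ± 0.44, adjusted p = 0.000617). Among other transcription factors of the lineage, Gata2 rose from 0.127, 0.178 and 0.293 to 0.976, 2.62 and 2.52 RPKM. Gata3 rose from 0.241, 0.341 and 0.0697 to 0.725, 2.51 and 2.48 RPKM. For both, TET TKO replicate 1 was lowest of its group but still above every ESC library. Tfap2c, an AP-2 factor that ESCs also carry, went from 17.6, 17.3 and 23.7 to 49.8, 38.7 and 76.2 RPKM. Apart from Hand1, Tfap2c, Cdx2 and Elf5, the members named here and with the keratins were picked out after their values were seen.

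The simple-epithelial keratins, intermediate filaments that trophoblast and other epithelia make and the inner cell mass lacks, rose together. Krt18 read 11.6, 13.4 and 8.17 RPKM in ESC replicates 1, 2 and 3 and 66.6, 108 and 237 RPKM in TET TKO replicates 1, 2 and 3 (log2 fold change 3.63 ± 0.48, adjusted p = 0.00147). Its partner Krt8 read 6.46, 7.94 and 3.38 and 26.0, 57.4 and 90.4 RPKM, and Krt7 read 0.292, 0.291 and 0.556 and 1.86, 2.31 and 8.82 RPKM. In all 3 genes TET TKO replicate 3 was the highest of the ESC and TET TKO libraries, and no knockout value fell within the ESC range. The mean of the NP libraries was higher still: 277 RPKM of Krt18 beside 137 in TET TKO cells, 112 beside 58.0 of Krt8 and 9.71 beside 4.33 of Krt7. These keratins are thus not particular to trophoblast. NP means were also higher for Gata2 (2.97 beside 2.04) and Gata3 (3.84 beside 1.90), and lower for Hand1 (0.0563 beside 9.51). Of the 8 keratins tested, 5 were higher, with a median of 2.25. Krt8 has 55.7% of its exonic 50-base windows elsewhere in the genome, so part of its reads could be assigned to copies and its level is uncertain. The placental genes Plac1 (log2 fold change 3.80), Rhox6 (4.13) and Rhox9 (3.79) also rose. Rhox6 and Rhox9 share sequence with each other, which makes their separate values uncertain.

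The promoters of the 3 keratin genes are shown with that of Zfp42, a pluripotency gene that fell, because they moved in opposite directions and CpG dinucleotides are where TET enzymes mostly act. Each line gives the 250 bases before the annotated start (RefSeq, GRCm38.p6), 5′ to 3′ on the strand of the gene, in lower case with every CpG in capitals.
Krt7: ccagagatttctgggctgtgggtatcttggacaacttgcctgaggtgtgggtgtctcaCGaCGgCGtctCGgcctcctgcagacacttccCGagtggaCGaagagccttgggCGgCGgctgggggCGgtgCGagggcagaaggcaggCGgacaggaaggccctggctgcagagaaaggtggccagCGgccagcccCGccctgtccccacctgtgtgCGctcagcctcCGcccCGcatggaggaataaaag
Krt8: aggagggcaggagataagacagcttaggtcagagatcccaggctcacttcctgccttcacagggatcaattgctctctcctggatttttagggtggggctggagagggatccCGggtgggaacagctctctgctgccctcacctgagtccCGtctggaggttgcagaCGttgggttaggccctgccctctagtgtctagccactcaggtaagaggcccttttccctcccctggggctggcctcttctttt
Krt18: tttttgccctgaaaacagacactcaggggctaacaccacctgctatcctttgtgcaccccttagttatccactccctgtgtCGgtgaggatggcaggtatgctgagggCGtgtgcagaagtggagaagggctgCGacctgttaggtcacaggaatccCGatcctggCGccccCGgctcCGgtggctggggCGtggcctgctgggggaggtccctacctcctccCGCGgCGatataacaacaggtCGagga
Zfp42: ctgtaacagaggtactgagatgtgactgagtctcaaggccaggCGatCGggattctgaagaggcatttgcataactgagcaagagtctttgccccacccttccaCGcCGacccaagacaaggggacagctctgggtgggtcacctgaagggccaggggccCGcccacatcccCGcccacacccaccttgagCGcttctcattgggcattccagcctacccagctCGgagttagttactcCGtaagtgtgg
Krt7 lies on the plus strand at chr15:101412153-101412402 and Krt18 on the plus strand at chr15:102027966-102028215. Krt8 lies on the minus strand at chr15:102004343-102004592 and Zfp42 on the minus strand at chr8:43307010-43307259. The letters CG, which read the same on both strands, occur 16 times in the Krt7 promoter, 12 in that of Krt18, 3 in that of Krt8 and 9 in that of Zfp42. Over all 32851 promoters of the same length, 92.1% held at least 1 and the quartiles were 2, 6 and 16. The Krt7 promoter thus lay at the upper quartile and that of Krt8 below the median, and the methylation of these promoters was not analysed here.

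Of the factors in the trophoblast list, 7 of 10 tested were higher, while Cdx2 and Elf5, early factors of the lineage, stayed low. Cdx2 had 9, 14 and 1 reads in ESC replicates 1, 2 and 3 and 31, 62 and 65 in the deeper TET TKO replicates, and Elf5 had 4, 0 and 2 and 21, 55 and 59. Neither reached 1 RPKM in any of the 6 libraries, so neither was tested. Tpbpa, a marker of the spongiotrophoblast, had 0, 0 and 0 and 4, 0 and 3 reads. Summed over the whole list, the level was 131, 135 and 113 RPKM in ESC replicates 1, 2 and 3. It was 402, 632 and 904 RPKM in TET TKO replicates 1, 2 and 3. By the mean of the TET TKO group, the imprinted gene Peg10 was the most abundant member. The 3 knockout libraries differed among themselves by more than the ESC libraries did. Leaving out TET TKO replicate 3, the highest, gave 18 of 22 higher and a median of 1.94. Without ESC replicate 3, 17 were higher and 1 lower. Outside chromosomes 6, 8 and 11, which had the highest medians of the nuclear chromosomes, 12 of 15 were higher.

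**Figure D2:**
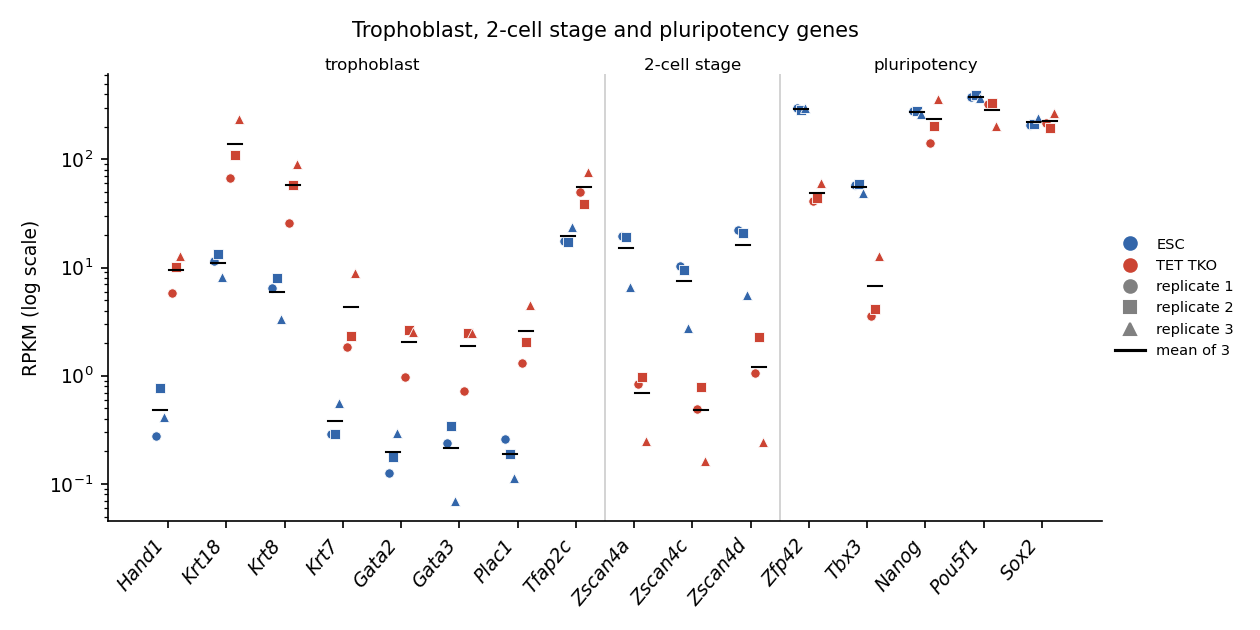
RPKM on a log scale of trophoblast, 2-cell stage and pluripotency genes in each ESC and TET TKO library; shapes mark replicates and lines the mean of 3. The 8 trophoblast genes lie higher in every TET TKO library than in any ESC library and the 3 Zscan4 genes lower, while Nanog and Sox2 overlap between the groups.

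Genes of the 2-cell embryo moved the other way. Of 22 tested members of that list, 14 were lower and 0 higher by edgeR (higher at an unadjusted p under 0.05 were 0, and by DESeq2 0), where 6.73% of all tested genes were lower, and their median log2 fold change was -1.88. By edgeR 0 of them passed the stricter rule, while 17 had an unadjusted p under 0.05 and DESeq2 called 13 lower by that rule. Without ESC replicate 1, the count of lower members at 2-fold was 9. Zscan4a, of a zinc finger cluster that marks the 2-cell state, read 19.4, 19.1 and 6.65 RPKM in ESC replicates 1, 2 and 3 and 0.843, 0.976 and 0.250 RPKM in the knockout (log2 fold change -4.45 ± 0.61, adjusted p = 0.00175). Zscan4d read 22.2, 20.7 and 5.61 RPKM in ESCs and 1.07, 2.28 and 0.246 RPKM in TET TKO cells. ESC replicate 3 was the lowest ESC library for both and still lay above the knockout. These genes are near copies of each other: 16 of the 22 tested members share at least 10% of their exonic windows with other places in the genome, so single values are uncertain. The multicopy members summed to 96.8, 90.5 and 31.0 RPKM in ESCs and 10.2, 16.8 and 4.04 RPKM in TET TKO cells. The whole list summed to 272, 276 and 156 RPKM in ESCs and 63.8, 245 and 147 RPKM in TET TKO cells, so its sum overlapped between the groups. Among the 6 members with few shared windows, 3 were lower.

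The core of the pluripotency network did not pass the test. Sox2 read 209, 210.4 and 238 RPKM in ESCs and 215, 196 and 266 RPKM in TET TKO cells, and Nanog 278, 282 and 261 and 140.5, 201 and 359 RPKM. Pou5f1, which encodes OCT4, read 378, 396 and 366 RPKM in ESCs and 322, 329 and 202 RPKM in the knockout. Sox2 and Nanog overlapped between the groups; Pou5f1 did not, but its log2 fold change of -0.42 ± 0.18 had an adjusted p of 0.110. Nanog and Pou5f1 have pseudogenes that share their sequence, and an antisense transcript overlaps Pou5f1 while reads were counted without strand. Both groups thus carry the defining transcripts of the cell type on their labels. Of 30 naive pluripotency genes tested, 1 was higher (Rex2, 92.7% of whose windows recur elsewhere) and 2 were lower. By DESeq2, or with scaling by library size alone, 5 were lower. The pair that fell by edgeR was Zfp42 (also called Rex1), at 301, 284 and 298 RPKM in ESCs and 41.1, 44.0 and 60.9 RPKM in the knockout (log2 fold change -2.60 ± 0.16), and the T-box factor Tbx3, at 58.1, 59.0 and 49.0 and 3.57, 4.15 and 12.7 RPKM. Esrrb and Klf4 were lower in all 3 knockout libraries without reaching 2-fold, with log2 fold changes of -0.61 and -0.95. Part of the Zfp42 windows (34.9%) recur elsewhere too, so its level is uncertain. The median of the list was -0.35, and without TET TKO replicate 3 6 members were lower.

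Formative and primed genes, which mark the step after naive pluripotency, went both ways, with 6 higher and 3 lower of 21 and a median of 0.55. The median depended on single libraries: it was 0.20 without TET TKO replicate 1, 0.22 without TET TKO replicate 2 and 0.87 without TET TKO replicate 3. The growth factor Fgf5 rose from 0.128, 0.262 and 0.0475 RPKM in ESCs to 1.23, 2.41 and 1.72 RPKM in the knockout, and Pou3f1 from 1.46, 1.40 and 1.22 to 6.33, 8.73 and 2.86 RPKM. Car4, a carbonic anhydrase, passed the stricter rule with a log2 fold change of 4.23 ± 0.26. Otx2 and Foxd3, factors of the same stage, fell, with the same log2 fold change of -1.62, and so did the growth factor Fgf15 (-2.49). TET TKO replicate 3 was the lowest library for Otx2, at 6.92, 3.82 and 1.43 RPKM in replicates 1, 2 and 3, and for Pou3f1 the lowest of the knockout. Without ESC replicate 1, or without ESC replicate 3, 1 of the list was lower.

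Feedback genes of the ERK pathway, which is downstream of fibroblast growth factors, were higher at 2-fold for 6 of 15, with a median of 0.51. The phosphatase Dusp4 read 5.06, 5.50 and 4.70 RPKM in ESCs and 24.6, 20.7 and 19.2 RPKM in TET TKO cells, and Dusp5 3.27, 3.39 and 2.63 and 8.66, 11.1 and 10.2 RPKM. Both passed the stricter rule and the groups did not overlap. Dusp6 rose as well (1.53). BMP targets, whose median was 0.53, gave 4 higher of 12, namely Gata2, Nog (2.16), a BMP antagonist, Id2 (2.68) and Id4 (1.73), while Id1 and Id3 overlapped between the groups. The Nodal and Lefty list held 1 higher and 3 lower of 15, with a median of -0.03. Nodal itself, the ligand, was lower, at 70.4, 73.0 and 50.2 RPKM in ESCs and 35.2, 34.1 and 21.3 RPKM in the knockout. Inhbb, an activin subunit, fell too, from 18.4, 19.4 and 11.2 to 5.58, 5.73 and 2.24 RPKM, beside the cyclin Ccnd2. Wnt targets gave 1 higher (Wnt3) and 3 lower (Cdx1, Notum and T) of 12, where 6.73% of all genes tested were lower. Their median was 0.26, but it was -0.04 without TET TKO replicate 1, -0.02 with scaling by library size alone and -0.21 over the 6 targets outside chromosomes 6, 8 and 11. LIF and STAT3 targets gave 2 higher of 14, the metallothioneins Mt1 and Mt2, or 14.3% beside 8.87% of all genes, with a median of -0.25. Both lie on chromosome 8. By DESeq2, with scaling by library size alone or without TET TKO replicate 3, 2 of these targets were lower, and without TET TKO replicate 3 the median was -0.05. Of 14 Notch genes 1 was lower, Notch4 (7.14%, beside 6.73% of all genes tested), with a median of 0.28. Of 9 retinoic acid genes 2 were lower, Aldh1a2 and Cdx1 (22.2%), and 1 was without any 1 of the ESC replicates or TET TKO replicate 1. The median of that list lay within 0.01 of 0, but at -0.31 without TET TKO replicate 1. Without ESC replicate 2, 1 Nodal and Lefty gene was lower, and the calls of all 3 lower Wnt targets were lost. Of the 6 fits with a library left out, only that without TET TKO replicate 2 called a higher member of the Nodal and Lefty list. Scaling by library size alone called none. Without ESC replicate 1 or TET TKO replicate 1, 1 Wnt target was lower, and Wnt3 was not called without ESC replicate 1 or ESC replicate 3.

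Imprinted genes, whose expression follows the parental origin of methylated control regions, gave 8 higher and 2 lower of 41 tested, with a median of 0.45, or 0.25 outside chromosomes 6, 8 and 11. The noncoding H19 read 13.6, 17.8 and 5.76 RPKM in ESC replicates 1, 2 and 3 and 154, 394 and 591 RPKM in TET TKO replicates 1, 2 and 3. All knockout values lay above all ESC values, but they spread widely among themselves, and the log2 fold change of 4.94 ± 0.61 had an adjusted p of 0.00122, short of the stricter threshold. Igf2, its neighbour, overlapped between the groups, at 2.45, 4.02 and 1.11 and 2.48, 8.54 and 6.97 RPKM. Peg10 rose from 53.7, 56.9 and 27.9 to 129, 288 and 195 RPKM and Peg3, a zinc finger gene, had a log2 fold change of 1.76. Grb10, an adaptor that restrains insulin signalling, fell from 29.4, 29.1 and 35.95 RPKM in ESCs to 7.28, 3.71 and 2.53 RPKM in the knockout, and the cell cycle inhibitor Cdkn1c had a log2 fold change of -1.38. Without ESC replicate 1, ESC replicate 2 or TET TKO replicate 2, the count of higher imprinted genes was 5. Scaling by library size alone also gave 5.

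Germline and meiosis genes, many with promoters that are methylated in somatic cells, were 11 higher and 4 lower of 47, with a median of 0.06. Without TET TKO replicate 3, 7 were lower and the median was 0.23. The median was 0.13 without TET TKO replicate 1 and 0.02 without ESC replicate 2. Tex15, needed for meiotic recombination, rose from 1.70, 1.65 and 1.498 to 5.99, 8.18 and 5.15 RPKM. Sohlh2, a transcription factor of germ cells, fell from 32.3, 33.5 and 41.5 to 5.85, 3.56 and 7.56 RPKM. Both passed the stricter rule and neither overlapped between the groups. The piRNA gene Piwil2 was higher in every knockout library, at a log2 fold change of 0.75 that stayed under 2-fold. In the DNA methylation list, 1 of 20 was called, or 5.0% higher beside 8.87% of all genes tested, and the median was -0.07. The maintenance enzyme Dnmt1 read 73.5, 72.5 and 74.7 RPKM in ESCs and 64.4, 70.9 and 65.0 RPKM in the knockout, and the de novo enzyme Dnmt3b 57.7, 59.3 and 50.2 and 88.6, 134 and 37.2 RPKM, with the lowest value of all in TET TKO replicate 3. The member that rose was Dppa3, which protects the maternal genome from demethylation in the zygote, at 6.15, 5.19 and 12.6 and 57.0, 74.5 and 125 RPKM. Of its windows 27.9% recur elsewhere, so its level is uncertain. Beside Tet1 and Tet2, the demethylation list gave 5 higher of 17 genes of base excision and repair, with a median of 0.35. Gadd45b (1.42), Gadd45g (1.35) and the glycosylase Neil2 (1.44) rose, and Gadd45a, a stress-induced adaptor of DNA repair, rose from 9.21, 9.37 and 7.09 to 31.3, 33.1 and 28.3 RPKM. Tdg, the glycosylase that removes oxidised methylcytosine, had a log2 fold change of 2.34, but 49.4% of its windows recur elsewhere, so its level is uncertain.

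Genes of the extracellular matrix, cytoskeleton and adhesion were 13 higher and 4 lower of 40, with a median of 0.45, or 0.09 outside chromosomes 6, 8 and 11. Tropomyosin Tpm2 rose and the basement membrane protein Nid1 fell by the stricter rule, with log2 fold changes of 1.68 and -1.66. The smooth muscle actin-binding protein Tagln (1.98) and the calcium-binding S100a6 (2.94) rose too. The epithelial genes Cdh1 (1.07) and Epcam (1.57) were higher, as were 3 of 8 tested claudins, which seal epithelial junctions: Cldn4, Cldn6 and Cldn7. Cldn4 went from 35.8, 40.6 and 43.1 RPKM in ESCs to 88.5, 125 and 233 RPKM in TET TKO cells. The mesenchymal filament Vim fell (-1.99), beside Nid2 (-1.33) and the galectin Lgals3 (-1.14). Of 16 collagens, 2 were higher (Col1a2 and Col4a2) and 3 lower (Col13a1, Col26a1 and Col6a4).

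Interferon and RNA sensing genes gave 5 higher and 1 lower of 13, with a median of 0.04. Bst2, a membrane tether of enveloped viruses, read 35.8, 33.2 and 46.1 RPKM in ESCs and 172, 119.5 and 228 RPKM in the knockout. Ifitm3 (1.02), the transcription factor Irf1 (1.25) and Oasl2 (3.65) also rose, while Oas1a fell (-2.55). Windows found elsewhere made up 64.6% of Oas1a, 10.2% of Ifitm3 and 10.4% of Isg15, so their levels are uncertain. Among the 8 members with few shared windows, 3 were higher and 0 lower, with a median of 0.51. Isg15, a typical interferon-induced gene, had 4, 2 and 1 reads in ESCs and 65, 77 and 238 in the knockout and rose from a low level, and Ifit1 and Ifit3 stayed below the limit for testing. Antigen presentation gave 3 higher and 1 lower of 9, with a median of 0.56. B2m, the light chain of class I molecules, Tap2, a peptide transporter, and the immunoproteasome subunit Psmb8 were higher, and the class I gene H2-M5 lower. Without ESC replicate 1, ESC replicate 2 or TET TKO replicate 3, 1 of these genes was higher.

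Of the cell cycle list, 2 of 39 were higher and 1 lower (5.13% and 2.56%, below the shares of all genes tested), with a median of 0.14. The tumour suppressor Cdkn2a rose from 4.06, 3.62 and 2.67 RPKM in ESCs to 32.3, 19.2 and 16.9 RPKM in the knockout, its neighbour Cdkn2b had a log2 fold change of 1.29, and the D cyclin Ccnd2 one of -1.91. Cdkn2a passed the stricter rule and its groups did not overlap. Without ESC replicate 1 or ESC replicate 3 the count of higher cell cycle genes was 1, and Ccnd2 was not called without ESC replicate 1 or ESC replicate 2. Polycomb subunits, which place and read repressive histone marks, gave 5 higher and 1 lower of 29, with a median of 0.32. Outside chromosomes 6, 8 and 11, 2 of 19 were higher, as Suz12 and Epop lie on chromosome 11 and Pcgf1 and Rybp on chromosome 6. Suz12, a core subunit of PRC2, read 74.6, 76.4 and 83.7 RPKM in ESCs and 152, 169.8 and 217 RPKM in TET TKO cells, and its partner Phf19 read 2.39, 2.27 and 3.20 and 7.79, 18.8 and 15.9 RPKM. Epop, a PRC2 cofactor of ESCs, fell from 249, 256 and 215 to 104, 152 and 74.1 RPKM. Pcgf5, Pcgf1 and Rybp, subunits of PRC1, were higher as well, the last of these and Pcgf1 with windows shared with pseudogenes (73.5% and 16.3%). Among other histone methylation and heterochromatin genes, 2 were higher (Atrx and Cbx3) and 1 lower (Setd1b) of 26. These shares, 7.69% and 3.85%, lay below those of all genes tested, and the median was -0.06. That median was 0.06 without TET TKO replicate 3 and -0.11 without ESC replicate 3. The remodeller Atrx read 13.9, 14.1 and 12.97 RPKM in ESCs and 33.7, 46.1 and 41.3 RPKM in the knockout. The calls of Setd1b and Epop were lost without TET TKO replicate 3, and that of Setd1b also without ESC replicate 1, ESC replicate 2 or TET TKO replicate 1.

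No member of the respiratory chain list (26 tested) or the endoplasmic reticulum stress list (16 tested) passed the 2-fold rule by edgeR or DESeq2, and 6 and 7 members had an unadjusted p under 0.05 by edgeR. Their medians were 0.08 and 0.14. The respiratory chain median was 0.001 without TET TKO replicate 1 and 0.13 without TET TKO replicate 3. Glycolysis gave 2 higher of 24 (8.33%, beside 8.87% of all genes tested), with a median of 0.29. The 2 were the muscle-type enolase Eno3 and phosphofructokinase Pfkm. Outside chromosomes 6, 8 and 11, 1 of 15 was higher. In cholesterol synthesis the isomerase Ebp was the 1 lower gene of 22, at 21.8, 24.4 and 24.5 RPKM in ESCs and 8.58, 8.57 and 10.2 RPKM in TET TKO cells, although the median of the list was 0.47. Without ESC replicate 3, 4 cholesterol genes were higher, and without TET TKO replicate 2, 3 were. The mitochondrial folate enzyme Mthfd2 was the 1 higher gene of 18 (5.56%) in serine and folate metabolism, whose median was 0.40, or 0.19 without TET TKO replicate 1. Of 20 p53 targets, 2 were lower (Ddit4l and Eda2r), with a median of -0.13. Neither call held without ESC replicate 2 or TET TKO replicate 3, and 1 p53 target was lower without ESC replicate 1 or TET TKO replicate 2.

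The factors whose motifs the study assayed gave 2 higher (Gata3 and Ets1) and 2 lower (Otx2 and Foxd3) of 20, with a median of 0.12. Leaving out any of the ESC libraries, TET TKO replicate 2 or TET TKO replicate 3 brought the count of higher or of lower factors, or both, to 1. Without TET TKO replicate 3, 3 were lower and the median was 0.02. DESeq2 and scaling by library size alone each gave 1 higher and 3 lower. Of the X inactivation list, 4 genes were tested, with a median of 1.47, and Rlim and Ftx were among those that rose. Xist, the RNA that coats the inactive X, read 0.370, 0.356 and 0.192 RPKM in ESCs and 0.0606, 0.154 and 0.0953 RPKM in the knockout, below the limit for testing.

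Among gene families taken by symbol, the 206 solute carriers gave 18 higher (8.74%) and 14 lower (6.80%) and a median of 0.14, all close to the values of all genes tested. The 341 zinc finger genes named Zfp gave 14 higher (4.11%) and 20 lower (5.87%), below the shares of all genes, and a median of -0.22. Platr transcripts, noncoding RNAs named for their link to pluripotency, had 5 lower of 20 and a median of -0.60. The Rhox homeobox cluster on the X chromosome split. Rhox5 rose from 56.5, 26.4 and 93 to 244, 232 and 383 RPKM, beside Rhox6 and Rhox9, whereas Rhox10 fell from 5.16, 4.41 and 3.996 to 1.10, 0.351 and 0.117 RPKM and Rhox13 from 5.07, 4.74 and 2.85 to 1.31, 0.811 and 0.918 RPKM. In each of these the groups did not overlap. Of 20 replication histones, 3 were higher and 3 lower, and 16 share windows with relatives. Most Hox genes and clustered protocadherins were too low to test, 1 of 39 and 2 of 57 being tested, as were 2 of 1405 olfactory receptors.

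Markers of other cell types were low or mixed. Of 15 fibroblast and feeder markers, 6 were tested, 1 higher (Col1a2) and 1 lower (Thy1), with a median of 0.31 that was -0.17 without TET TKO replicate 3. They summed to 10.2, 11.4 and 10.6 RPKM in ESCs and 9.13, 6.61 and 16.6 RPKM in TET TKO cells. By the mean of the TET TKO group Acta2 was the most abundant, but Thy1 lay above Acta2 in every ESC library and in TET TKO replicate 1. Col1a2 read 0.213, 0.254 and 2.16 RPKM in TET TKO replicates 1, 2 and 3, so its rise lay mostly in replicate 3, and neither call held without ESC replicate 1, 2 or 3. The blood marker Ptprc had 0, 2 and 0 reads in ESCs and 8, 21 and 2 in the knockout. Of 4 blood and endothelial markers tested, 0 were called at 2-fold by edgeR and 1 by DESeq2, while 2 had an unadjusted p under 0.05 by edgeR. Their median was -0.37, or -0.20 without TET TKO replicate 1. Without TET TKO replicate 3 it was -0.51 and 1 was lower.

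Neural genes were 5 higher (Nes, Sox1, Sox11, Irx3 and Elavl4) and 3 lower (Ncam1, Gap43 and Stmn2) of 14, with a median of 0.64, while 20 others were too low to test. Without TET TKO replicate 1 the median was 0.15. The groups overlapped for Sox1, at 0.644, 0.678 and 0.451 RPKM in ESCs and 1.93, 2.43 and 0.624 RPKM in TET TKO cells. Without ESC replicate 3, 1 neural gene was lower. Neural crest genes gave 1 higher (Ets1) and 1 lower (Foxd3) of 6, with a median of 0.04 that left-out libraries moved between -0.41 and 0.59, and the call of Ets1 was lost without ESC replicate 1, ESC replicate 3 or TET TKO replicate 3. In endoderm, Cited1 and Col4a2 rose and the liver and visceral endoderm factor Hnf4a fell (-3.26), 2 higher and 1 lower of 14 with a median of 0.28. Of the streak and mesoderm list, 8 of 29 were tested, 4 higher and 2 lower with a median of 0.87. Its sign turned outside chromosomes 6, 8 and 11, where 1 was higher and 2 lower of 5, with a median of -0.76. T (Brachyury) went from 0.751, 1.13 and 0.393 RPKM in ESCs to 0.2803, 0.243 and 0.0579 RPKM in the knockout and fell, as did Mesp2. Eomes, a T-box factor of the streak that the trophoblast also uses, rose from 1.29, 1.30 and 1.11 to 2.77, 2.46 and 3.44 RPKM, and the others that rose were Wnt3, Gata2 and Hand1. Neither T nor Mesp2 was called without ESC replicate 1 or without ESC replicate 2. The list held 1 lower member without TET TKO replicate 1 or without TET TKO replicate 2. The part of other cell types in the group difference was not tested. With scaling by library size alone, the medians of the germline, interferon, cell cycle, stress, respiratory, motif factor and neural crest lists turned negative, as did that of Wnt targets. Leaving out single libraries moved medians in other lists too. They ran from 0.35 to 0.55 for ERK feedback genes, 0.32 to 0.68 for BMP targets, 0.18 to 0.47 for endoderm and 0.13 to 0.37 for Notch genes. They ran from 0.27 to 0.70 for cholesterol synthesis, 0.14 to 0.45 for glycolysis, -0.27 to -0.05 for p53 targets and -0.12 to 0.19 for interferon genes. Outside chromosomes 6, 8 and 11, 2 of 10 BMP targets, 7 of 36 germline genes and 3 of 11 interferon genes were higher.

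**Figure D3:**
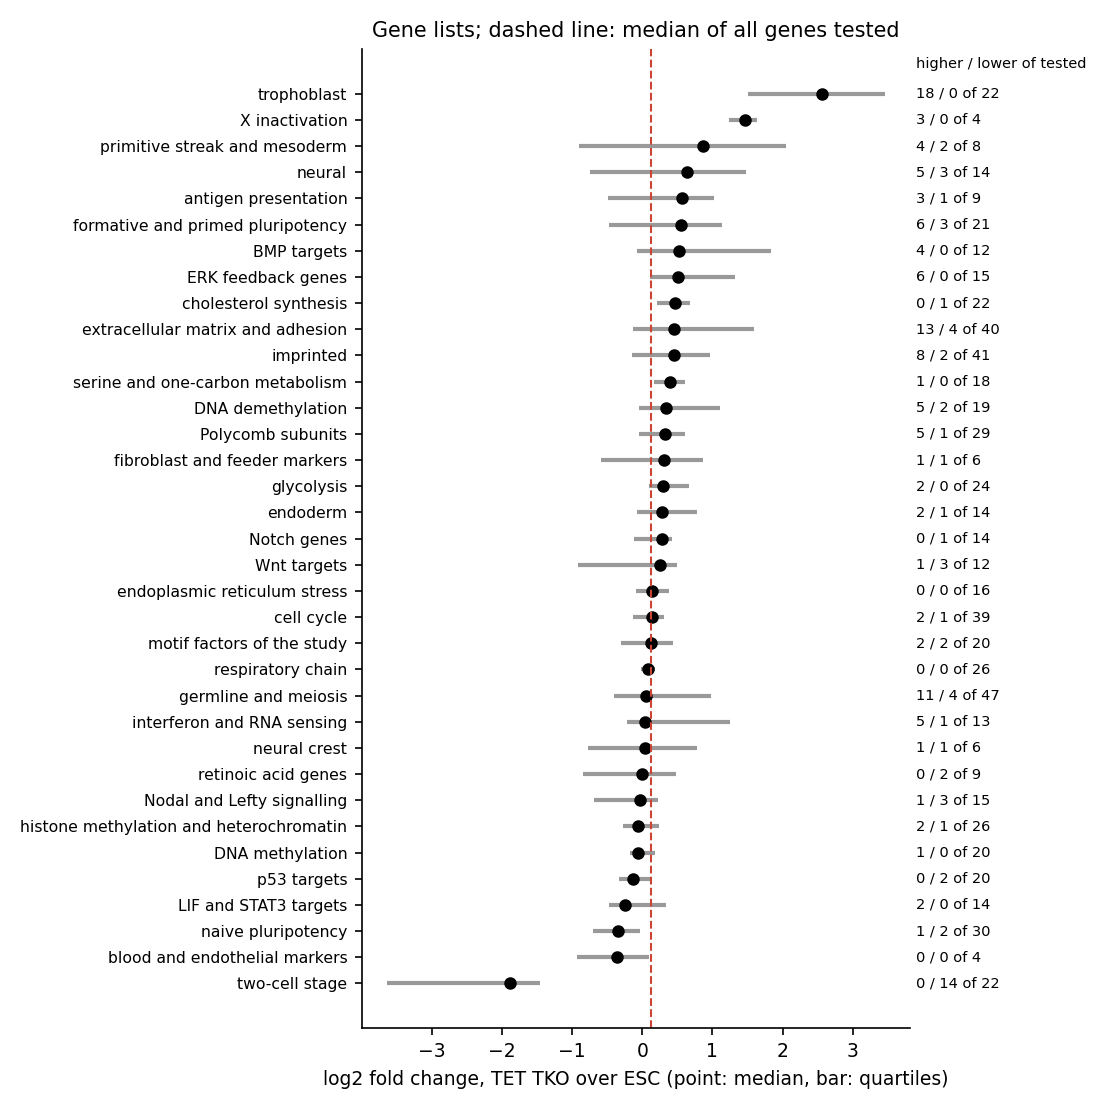
Median (point) and quartiles (bar) of the log2 fold change, TET TKO over ESC, of the tested members of each gene list, with the numbers higher and lower at 2-fold at the right. The trophoblast list lies highest at 2.56 and the 2-cell stage list lowest at -1.88; the dashed line marks the median of all genes tested, 0.12.

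Fold changes also depended on where genes lie. On chromosome 8, the median log2 fold change of 772 tested genes was 0.59, 84.5% of them were above 0, and 184 were higher and 27 lower at 2-fold. Chromosome 11 had a median of 0.34 over 1215 genes and chromosome 6 one of 0.30 over 622. The other autosomes and the X chromosome lay between -0.01 and 0.16. Measured against the mean of the ESC libraries, the median difference of chromosome 8 genes was 0.63, 0.60 and 0.59 in TET TKO replicates 1, 2 and 3 and within 0.02 of 0 in each ESC replicate. The shift of chromosome 8 was thus alike in every knockout library, and no ESC library stood apart from the others. On chromosome 11 the ESC replicates differed, at -0.05, -0.07 and 0.12, beside 0.36, 0.34 and 0.31 in the knockout. On chromosome 8 the shift ran along the whole length: among genes with few shared windows, all 13 windows of 10 Mb had medians between 0.40 and 1.02. On chromosome 6 it lay in a stretch of the chromosome. Between 50 and 100 Mb (GRCm38), again among genes with few shared windows, 174 genes had a median of 1.04 and 90 were higher at 2-fold, while the 365 genes elsewhere on the chromosome had a median of 0.08. That stretch was chosen after the values were seen.

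Together chromosomes 6, 8 and 11 held 18.7% of the genes tested but 32.2% of the genes that rose and 15.9% of those that fell by the stricter rule. Nod1, Gadd45a, Mthfd2 and Gata2 lie between 50 and 100 Mb on chromosome 6, and Ido2, Bst2, Dusp4 and Tex15 on chromosome 8. Zfp42 and Kbtbd11 are on chromosome 8 as well and fell. Chromosome 11 holds Hand1, Car4, Cldn7 and Dynll2, which rose, and Grb10 and Epop, which fell. A fit without the 3 chromosomes gave 106 higher and 130 lower of 11999. DNA content of the lines was not analysed here, and the part of chromosome position in single genes was not tested. Mitochondrially encoded genes had a median of 0.63 over 20, with 3 higher at 2-fold. Both lines expressed genes of the Y chromosome, such as Eif2s3y, at 21.4, 21.6 and 23.5 RPKM in ESCs and 21.3, 25.5 and 28.9 RPKM in the knockout.

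**Figure D4:**
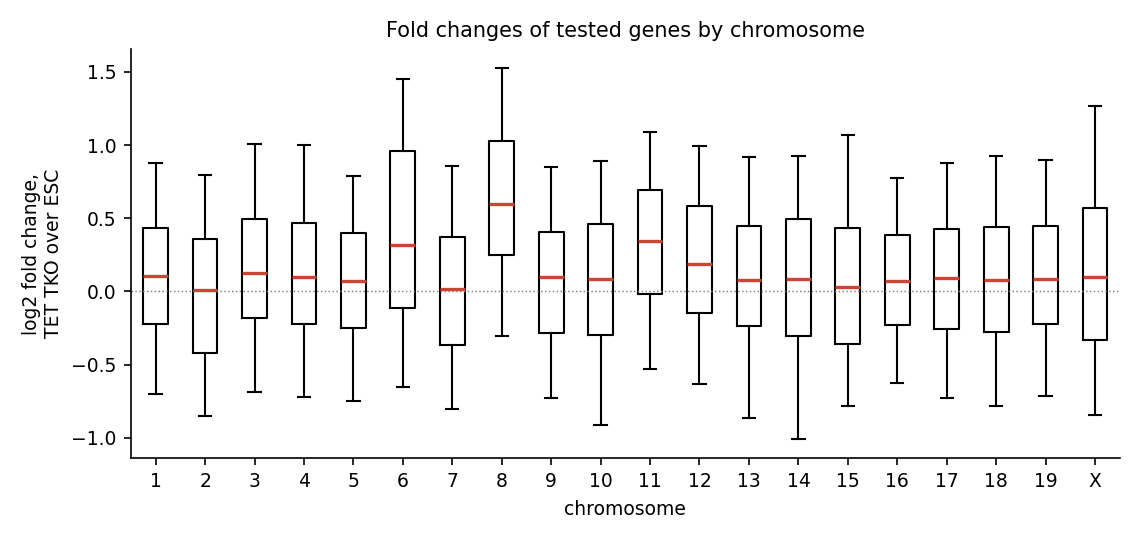
Log2 fold change, TET TKO over ESC, of tested genes with under 10% of their windows elsewhere in the genome, by chromosome; boxes give quartiles, red lines medians and whiskers the 10th and 90th percentiles. Of the chromosomes shown, 8 has the highest median, followed by 11 and 6.

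A further part of the calls came from genes that share sequence with copies of themselves. Exons of every tested gene were read in 50-base windows, and 1850 genes had at least 10% of them elsewhere in the genome. Of these, 4.97% were called by the stricter rule (30 higher and 62 lower), against 1.77% of the other 12089 (113 and 101). By kind of gene, pseudogenes gave 3 higher and 52 lower of 710, long noncoding RNAs 6 and 18 of 646, and protein-coding genes 134 and 91 of 12065. The ribosomal protein gene Rps3a1 read 2.90, 2.50 and 1.499 RPKM in ESC replicates 1, 2 and 3 and 165, 161 and 143 RPKM in the knockout. Its copy Rps3a3, annotated within the gene Pde4d, read 238, 246 and 244 RPKM in ESCs and 0.377, 0.270 and 0.295 RPKM in the knockout. The pair exchanged places: summed over the 3 Rps3a genes, ESC replicates held 192, 198 and 195 CPM and TET TKO replicates 161, 158 and 140.1. CPM are reads scaled by library size as for RPKM, but not by gene length. NP libraries, from cells derived from the wild-type ESC line, had ESC-like values, with 1.25, 1.77 and 1.77 RPKM for Rps3a1 and 272, 335 and 373 RPKM for Rps3a3.

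In 4 further pairs a gene rose and its copy fell by the stricter rule: Ahcy and Gm4737, Carnmt1 and Gm8116, Hmga1 and Hmga1b, and Rnps1 and Gm9825. For Carnmt1 and its copy the summed level was 9.15, 9.13 and 6.22 CPM in ESCs and 6.75, 7.53 and 9.996 in the knockout, so the sum overlapped between the groups. The sums of the other 3 pairs were higher in each knockout library than in any ESC library. For Rnps1 and its copy they were 52.5, 53.5 and 62.9 in ESCs and 158, 122 and 137 in the knockout, for Ahcy 33.2, 30.9 and 30.4 and 52.0, 57.5 and 40.7, and for Hmga1 80.6, 85.0 and 95.0 and 150.5, 156 and 105. Rps2 and Rpl29, ribosomal protein genes with log2 fold changes of 2.15 and 3.53, also share windows with other places in the genome, so their levels are uncertain. Of 81 ribosomal protein genes tested, 8 were higher (9.88%) and 3 lower (3.70%) at 2-fold. Differences of strain, of genotype and of read placement cannot be told apart in these genes.

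**Figure D5:**
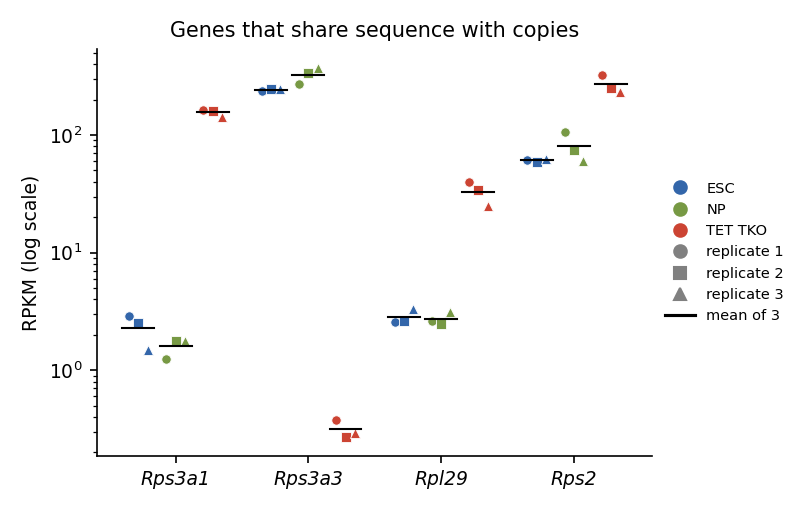
RPKM on a log scale of Rps3a1, its copy Rps3a3, Rpl29 and Rps2 in each ESC, NP and TET TKO library; shapes mark replicates and lines the mean of 3. Rps3a1 is low in ESC and NP libraries and high in TET TKO libraries, and Rps3a3 the reverse.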

How the data were processed

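RNA sequencing of ESC and TET TKO cells was analysed from count tables that the authors deposited. NP libraries were used for levels of a few copied genes, keratins and trophoblast factors and in an alternative fit. Per the submitters' processing notes and the file headers, the authors trimmed reads, aligned them with STAR 2.6.1b to GRCm38 and counted reads per gene over exons of Ensembl annotation 89 with featureCounts 1.6.2 (strand setting 0). Counting ignored strand, so reads of antisense or overlapping genes cannot be told apart, and reads of near-identical copies may be split between them. The deposited counts per gene were not normalised. The deposited gene length, the summed exon length, served for RPKM.

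TMM scaling and the quasi-likelihood test of edgeR 4.0.16 (robust, R 4.3.3, limma 3.58.1) compared 3 TET TKO with 3 ESC libraries over genes with at least 1 RPKM in at least 1 library. Genes were called at a Benjamini-Hochberg adjusted p under 0.001 and at least 3-fold, after the limits of the study, and for groups at an adjusted p under 0.05 and at least 2-fold. Log2 fold changes are TET TKO over ESC, and ± is the standard error. The TMM factors lay between 0.924 and 1.06, and TMM-scaled library sizes also served for RPKM and CPM. Totals ran from 20570050 to 93210102 reads, and the floor of 3 reads covers counting error only. Python 3.11.15, pandas 2.3.3, numpy 2.4.6 and matplotlib 3.10.9 served for tables and plots. The fit was also run on simulated counts with 200 changed genes, and no result of that run is given here. No 2 libraries agreed within sampling noise.

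Symbols, positions and kinds of gene came from the annotation of GRCm38, which gave a symbol to 51633 of 51912 genes. Exons were read in 50-base windows every 10 bases, and windows whose sequence occurs elsewhere in the genome were counted as shared. Promoter sequences (RefSeq, GRCm38.p6) matched 10031 of 13939 tested genes (72.0%), 75.5% of those called higher and 52.1% of those called lower, under the 80% needed, so a check of promoter CpG content over the called genes is void and no such result is given.

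The 35 gene lists and 14 symbol families, and the libraries compared, were chosen with earlier results of these data known. Genes named by rule (149) were Tet1, Tet2 and Tet3, the 10 largest and 10 smallest log2 fold changes among called genes with proper names, at least 10 reads in each library of the higher group and no overlap, the 5 most abundant called genes each way, the first 3 and up to 4 called members of each list and up to 2 called members of each family. A further 95 were named after their values were seen, among them every gene given for a count of 5 or fewer that the rule does not reach. Alternatives were total library size, DESeq2 size factors, the test of DESeq2 1.42.0, no filter, filterByExpr, thinned TET TKO counts, the looser rule, glmTreat, all 3 groups, a replicate block, each library left out and autosomes alone. Methylation tables of the inserted fragments were not used here. Some genes are not reported here.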

Additional observations from a re-analysis of the deposited data

How the results depend on the processing

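The 143 higher and 163 lower genes became 404 and 506 with the test of DESeq2, 441 and 583 without a filter on low genes (33796 tested), and 1236 and 938 by the looser rule. Scaling by library size alone left 89 higher. Leaving out each library in turn gave 13 to 150 higher and 34 to 163 lower genes, from fits with fewer samples. Outside genes with shared windows, an alternative chosen after seeing the data, 116 were higher and 101 lower of 12450. In the main fit, the genes with shared windows held 30 of the 143 higher and 62 of the 163 lower calls. A fit outside chromosomes 6, 8 and 11, also chosen after seeing the data, gave 106 and 130. Where nothing else is said, the cause was not tested. The remaining alternatives (DESeq2 size factors, filterByExpr, thinned TET TKO counts, glmTreat, all 3 groups in the fit and autosomes alone) moved each count by less than 1.5 times, between 111 and 202 higher and between 158 and 219 lower. The genes called changed more in some. Of the 306 main calls, glmTreat kept 216, thinned counts 264, all 3 groups 265, DESeq2 size factors 302 and filterByExpr 306. Autosomes alone kept 287 of the 288 tested there. Every gene called at 3-fold kept its direction under each alternative in which it was tested.

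With the replicate number as a block, the paired fit called 310 higher and 306 lower genes. Deviations of libraries with the same number correlated at -0.0809, 0.3022 and 0.2176 across genes for numbers 1, 2 and 3. The values for numbers 2 and 3 were the highest of any ESC library with any TET TKO library. ESC replicate 1 correlated best with TET TKO replicate 2 (0.177). Whether libraries with the same number share a batch was not tested, and the numbers were not taken as pairs. The labels tie no library of a group to one of the other.

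Depth limits the ESC side more than the knockout, since 1 read there stands for a higher level. Thinning the knockout counts to the ESC depth changed the numbers of calls little, with 264 of the 306 calls kept. The lines differ in strain as well as in genotype and there is 1 line of each, so strain, genotype and line cannot be told apart.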
